A study of Mus musculus with 30 samples.

Results

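The genes described here are 36 genes of the extracellular matrix and of the cells that make it, out of the 11249 genes in a mouse skeletal muscle mRNA table. They were chosen by gene symbol from a list of 8 roles: 6 fibrillar collagens, 3 collagen VI chains, 9 basement membrane genes, 4 matrix glycoproteins, 4 small leucine-rich proteoglycans, 4 genes of collagen folding and crosslinking, 3 genes of matrix turnover, and 3 fibroblast or tendon markers. All 36 were in the table, and the fewest reads for any of them in any library was 11. The study asked how the level of a spinal cord lesion bears on muscle away from the lesion. RNA was taken on day 3 after surgery from the gastrocnemius, a hindlimb muscle, and from the triceps brachii, a forelimb muscle, of male mice. The libraries formed 6 groups. In the gastrocnemius, 4 libraries came from mice with a complete cut of the cord at the high thoracic T3 level, 4 from mice cut at the low thoracic T9 level, and 4 from sham-operated mice. In the triceps there were 6 T3 libraries, 6 T9 libraries and 6 sham libraries. No strain, age or drug is named in the labels, and the muscles were sequenced whole.

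Muscle fibres sit in a layered scaffold. Next to each fibre lies the basement membrane, a sheet of collagen IV, laminin, nidogen and perlecan. Around it runs the interstitial matrix of fibrillar collagens I, III and V with collagen VI, which fibroblasts secrete and which small proteoglycans, glycoproteins and crosslinking enzymes organise. Collagen is made as a long precursor that is hydroxylated and folded inside the cell, trimmed and crosslinked outside it, and degraded by metalloproteinases that tissue inhibitors hold back. In a whole muscle, fewer cells of a type and less RNA per cell cannot be told apart.

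Depth was 13293557 to 23398801 reads in 29 of the 30 libraries and 88826845 reads in triceps T3 replicate 5. The 36 genes together took between 0.0761% of the reads, in triceps T3 replicate 4, and 0.241%, in triceps sham replicate 4. Triceps sham replicate 4 stood apart: its 9 macrophage markers summed to 1075 reads per 1000000 (CPM), against 19.8 to 46.1 CPM in the other triceps sham libraries. It was the highest triceps library for every one of the 36 genes called lower at T3 there: Col1a1, Col3a1, Col5a1, Col6a3, Lum and Timp2. The same held for Col1a2, Col5a2, Postn, Fn1, Sparc, Fbn1, Dcn, Bgn, Serpinh1, Lox, Pdgfra and Scx. The triceps changes of the genes called at T3 are therefore given with and without this library. The table held 0 genes of a neutrophil list and 0 of a lymphocyte list. The lowest library medians of log2 CPM were 3.67 in triceps T9 replicate 1, 3.29 in triceps sham replicate 3, 3.55 in triceps sham replicate 4 and 3.66 in gastrocnemius sham replicate 4. The median change over all genes was 0.27 on the log2 scale for T3 against sham and 0.40 for T9 against sham in the gastrocnemius, and 0.23 and 0.17 for the same comparisons in the triceps. Centring each library on its median takes this shift away.

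In the gastrocnemius, 2 of the 36 genes rose and 5 fell at T3 against sham, where 33.7% of all genes were called: Mmp2 and Lox rose, and Col1a1, Col3a1, Postn, Fbn1 and Bgn fell. At T9 against sham 4 rose and 3 fell, beside 43.2% of all genes: Scx, Loxl1, Mmp2 and Timp2 rose, and Col3a1, Postn and Fbn1 fell. By direction, 27.1% of all genes were called higher and 6.65% lower at T3, and 37.6% higher and 5.67% lower at T9. With each library centred on its median, 1 of the 36 was higher and 13 were lower at T3, beside 14.6% and 14.5% of all genes, and 1 was higher and 6 were lower at T9, beside 11.1% and 12.4%. Between the lesions, T3 against T9, Scx was the 1 gene called, and it was lower at T3 (1.63% of all genes called, 0.898% lower). In the triceps 0 of the 36 rose and 6 fell at T3 against sham (23.3% of all genes called, 19% higher and 4.32% lower): Col1a1, Col3a1, Col5a1, Col6a3, Lum and Timp2. At T9 against sham limma called 0 in the triceps, beside 0.00889% of all genes. There 2 of the 36 had an unadjusted p under 0.05, and limma with voom weights also called 0. At T3 against T9 in the triceps Pi16 was the 1 gene called, lower at T3, beside 7.6% of all genes (4.95% higher, 2.65% lower). Comparisons within a muscle share their libraries. Single libraries move these counts: at T3 in the gastrocnemius 14 genes were called without sham replicate 2 (7 higher, 7 lower) or without sham replicate 4 (3 higher, 11 lower) and 4 without T3 replicate 3, and at T9 13 were called without sham replicate 2 (9 higher, 4 lower). At T3 in the triceps 2 were called without T3 replicate 2 and 3 without T3 replicate 4 or 5. The shares of all genes called in these left-out fits are not given, so the counts show instability alone.

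**Figure D1:**
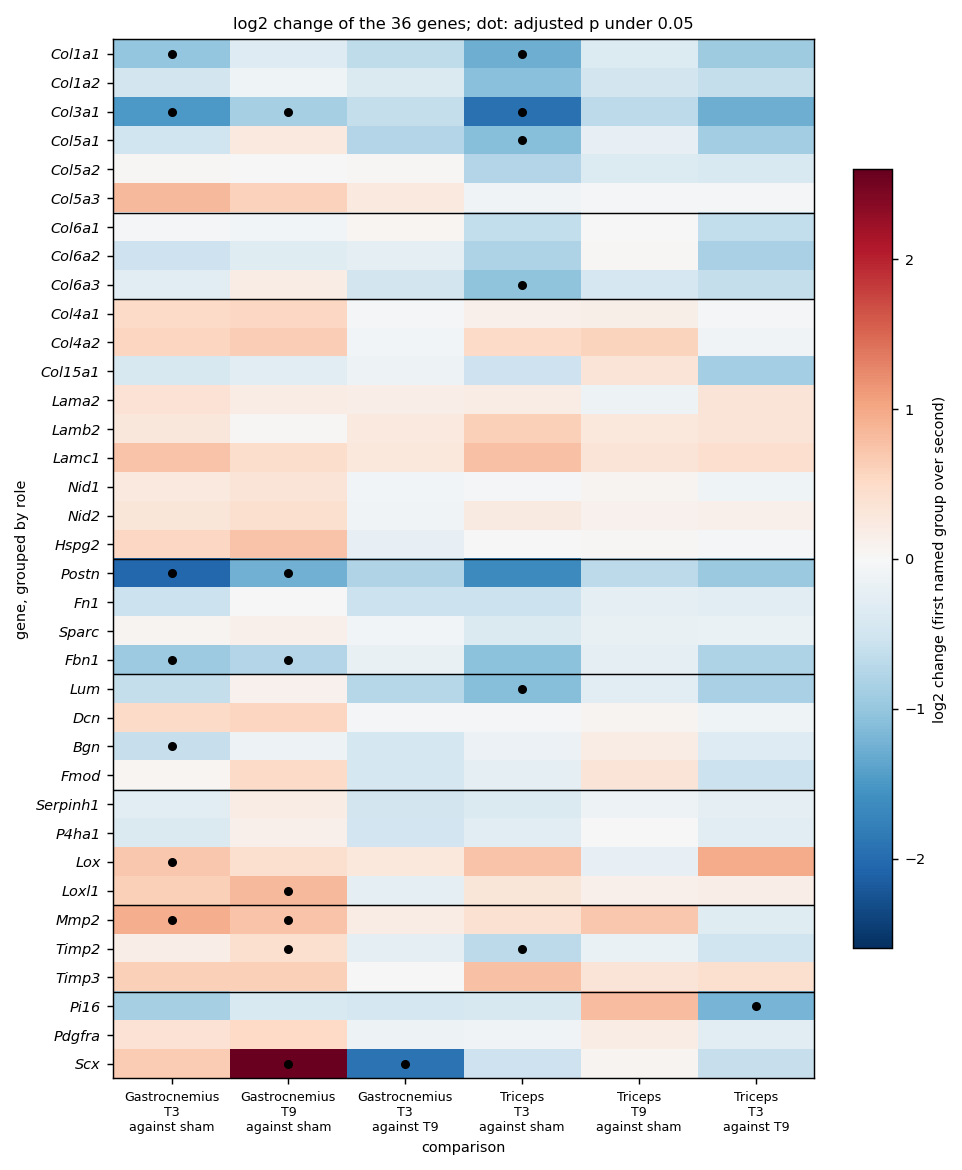
Log2 change, as colour, of each of the 36 genes (rows, grouped by role) in the 6 comparisons within a muscle (columns), red for higher and blue for lower in the first named group, with a dot where the adjusted p is under 0.05. Scx at T9 against sham in the gastrocnemius is the deepest red at 2.58, and Postn at T3 against sham in the gastrocnemius the deepest blue at -2.05.

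Fibrillar collagens form the tension-bearing fibres of the interstitium. Col3a1, the chain of collagen III, had 29.7, 24.3, 20.8 and 29.8 CPM in gastrocnemius T3 libraries, 40.5, 30.4, 35.6 and 58.1 CPM at T9, and 54.1, 86.7, 81.3 and 72 CPM in sham libraries. All 4 T3 libraries lay below all 4 sham libraries, and below all 4 T9 libraries, while 1 T9 library reached above the lowest sham library. Against sham the gene fell by 1.49 ± 0.21 (SE) on the log2 scale at T3 (adjusted p = 0.00023, limma) and by 0.86 ± 0.21 at T9 (adjusted p = 0.00722). The calls of Col3a1 in the gastrocnemius held in every one of the 8 fits that each left out 1 library of the 2 groups compared. T3 against T9 gave -0.63 ± 0.21, with an adjusted p of 0.165.

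In the triceps, Col3a1 had a lowest, median and highest value of 12.6, 16.8 and 34.1 CPM at T3, 28.8, 44.3 and 61.0 CPM at T9, and 22.5, 50.1 and 465 CPM in sham libraries. Of the 6 T3 libraries, 5 lay below every sham library and 5 below every T9 library, all T9 libraries lay within the sham range, and the highest sham library is replicate 4. The change at T3 against sham was -1.95 ± 0.53 with that library (adjusted p = 0.0138) and -1.38 without it (adjusted p = 0.0123). At T9 against sham it was -0.69, with a 95% interval of -1.81 to 0.43, and -0.12 without sham replicate 4 (adjusted p = 0.933). The library descriptions open with 57 or 60, and the change at T3 was -1.47 within 57 (2 libraries a group, adjusted p = 0.0238) and -2.19 within 60 (4 libraries a group, adjusted p = 0.0622).

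**Figure D2:**
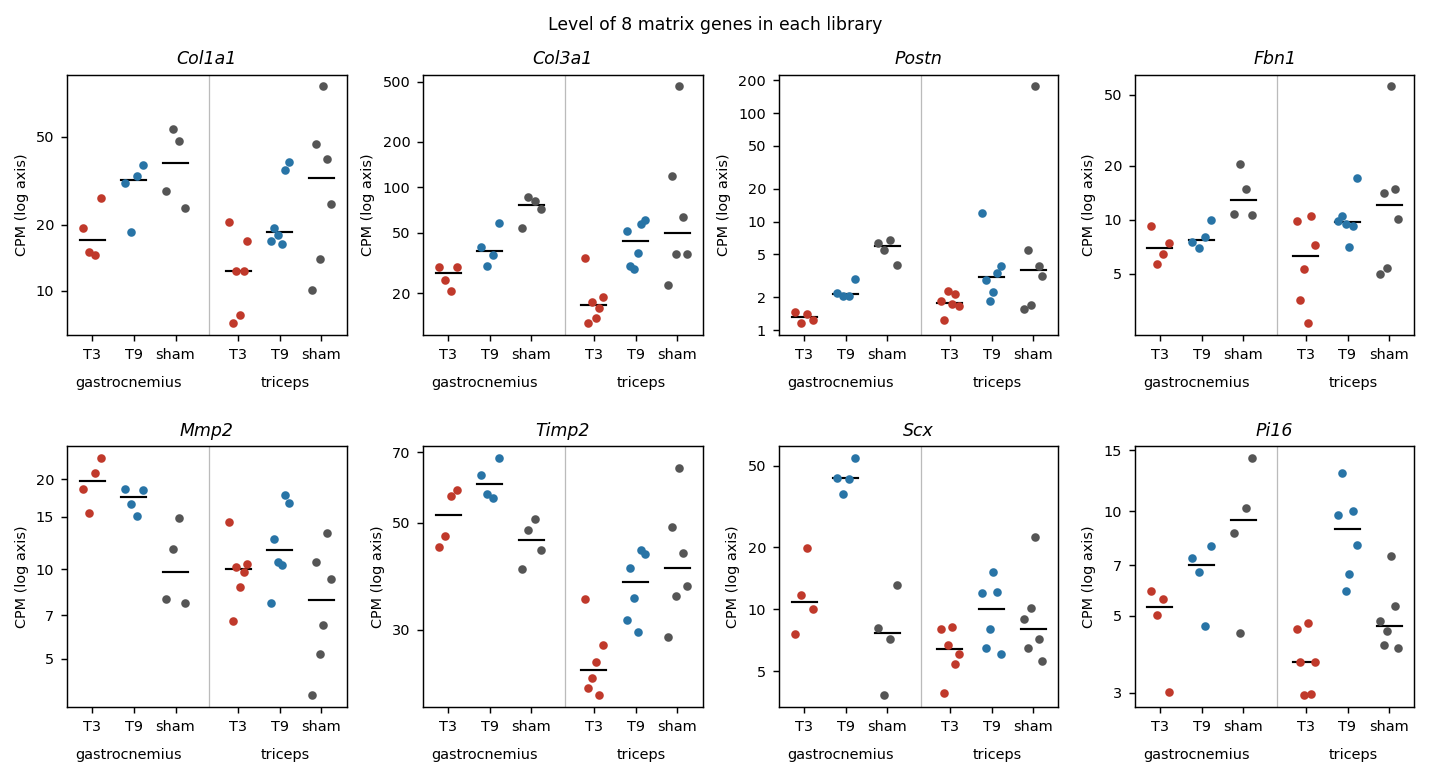
CPM in each library, on a log axis, for 8 of the genes, by surgery within each muscle; each point is 1 library and each line a group median. Within the gastrocnemius Col3a1 and Postn sit lowest at T3, Scx sits highest at T9 in the gastrocnemius, and triceps sham replicate 4 is the highest triceps point for Col3a1 and Postn.

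Col1a1 and Col1a2 code for the chains of collagen I, the main fibre collagen of muscle and tendon. Col1a1 had 19.2, 15, 14.6 and 26.5 CPM in gastrocnemius T3 libraries, 30.8, 18.6, 33.2 and 37.1 CPM at T9, and 28.4, 54.6, 47.9 and 23.9 CPM in sham libraries. The T3 and sham libraries overlap, since T3 replicate 4 lies above sham replicate 4. At T3 the level was 0.501 of that of sham (log2 95% interval -1.63 to -0.37, adjusted p = 0.0193), and the call was lost without T3 replicate 2 (-0.90, adjusted p = 0.0555) or without T3 replicate 3 (-0.89, adjusted p = 0.0595). In the triceps Col1a1 had 7.1, 12.3 and 20.5 CPM (lowest, median, highest) at T3 and 10.1, 32.4 and 84.9 CPM in sham libraries. It fell by 1.26 ± 0.41 there (adjusted p = 0.0323), and the call was lost without triceps sham replicate 2, 4 or 5 or T3 replicate 2, 4 or 5, with Col1a1 at -0.90 (adjusted p = 0.0693) without sham replicate 4. It was also lost with no term for the 57 or 60 (adjusted p = 0.0526), within 60 (-1.33, adjusted p = 0.115) and with the replicate number as a block (adjusted p = 0.0556). Col1a2 missed the threshold in both muscles at T3, at -0.49 ± 0.20 in the gastrocnemius (adjusted p = 0.0703) and -1.09 ± 0.39 in the triceps (adjusted p = 0.0508). With each library centred on its median, Col1a2 was called lower in the gastrocnemius at both lesions, at -0.76 for T3 and -0.50 for T9.

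Col5a1, Col5a2 and Col5a3 code for chains of collagen V, which starts fibres and limits their width. Col5a1 had 2.19, 5.07 and 6.54 CPM (lowest, median, highest) in triceps T3 libraries, 5.03, 9.78 and 13.9 CPM at T9, and 3.36, 14.1 and 18.8 CPM in sham libraries. It fell by 1.10 ± 0.37 at T3 against sham in the triceps (adjusted p = 0.0406), and 9 of the 12 fits that left out 1 library of these groups lost the call, with values between -1.15 and -0.86 (adjusted p for Col5a1 from 0.0537 to 0.101; -0.86 without sham replicate 4). The Col5a1 call was also lost with no term for the 57 or 60 (adjusted p = 0.0839), within 60 (-1.08, adjusted p = 0.165) and with the replicate number as a block (adjusted p = 0.0517). Col5a3 leaned the other way in the gastrocnemius, at 0.85 ± 0.33 for T3 against sham (adjusted p = 0.0645) with all T3 libraries between 20.1 and 29.3 CPM and sham libraries between 5.99 and 23.6 CPM. Col5a2 showed changes of 0.04 and 0.00 in the gastrocnemius at T3 and T9, and its 95% interval at T3 runs from -0.41 to 0.48. Over the 6 fibrillar collagens the median change was -0.50 at T3 and -0.05 at T9 in the gastrocnemius, and -1.10 and -0.36 in the triceps, against all-gene medians of 0.27, 0.40, 0.23 and 0.17. Without triceps sham replicate 4 the triceps medians were -0.77 at T3 and 0.00 at T9.

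On a per-length scale (CPM per kilobase of exon, RPKM), the 6 fibrillar collagens summed to 14.4 ± 2.14 (SD, n = 4) in gastrocnemius T3 libraries, 18.7 ± 3.24 at T9 and 23.0 ± 7.20 in sham libraries. The triceps sums ranged from 5.60 to 14.2 RPKM at T3, from 10.8 to 21.9 RPKM at T9, and from 7.66 to 85.6 RPKM in sham libraries. The highest of these is triceps sham replicate 4. The triceps mean was 8.56 ± 3.14 RPKM at T3, 14.8 ± 5.05 at T9 and 28.5 ± 29.1 in sham libraries (n = 6 each), and 17.1 ± 9.18 in sham libraries without replicate 4 (n = 5). The sums carry no test.

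**Figure D3:**
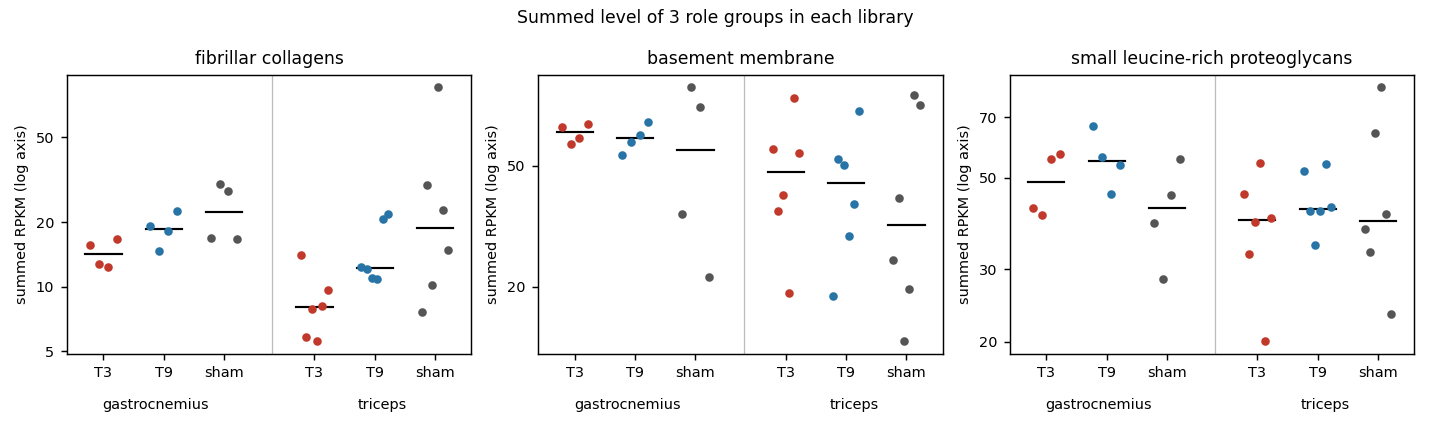
Sum of RPKM over the fibrillar collagens, the basement membrane genes and the small leucine-rich proteoglycans in each library, on a log axis, by surgery within each muscle; each point is 1 library and each line a group median. Fibrillar sums at T3 span 12.4 to 16.8 RPKM in the gastrocnemius and 5.60 to 14.2 RPKM in the triceps, and basement membrane sums spread from 21.5 to 90.7 RPKM among the gastrocnemius sham libraries.

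Collagen VI forms beaded filaments that link the fibre's basement membrane to the interstitial matrix, and its chains are coded by Col6a1, Col6a2 and Col6a3. Col6a3 was the 1 chain called, at -1.05 ± 0.33 for T3 against sham in the triceps (adjusted p = 0.0281). Its triceps values were 4.48, 7.45 and 9.54 CPM (lowest, median, highest) at T3, 8.39, 11.3 and 12.8 CPM at T9, and 8.2, 13.1 and 50.2 CPM in sham libraries, of which the 50.2 is replicate 4. Without that library the change of Col6a3 was -0.68 (adjusted p = 0.0262), and the call was lost without T3 replicate 2, 4 or 6 (adjusted p 0.0564, 0.0525 and 0.0538) and within 57 or 60 alone (-0.80 and -1.18, adjusted p = 0.0949 and 0.0966). In the gastrocnemius Col6a3 had 9.41, 12.5, 13.6 and 12.5 CPM at T3 and 17.6, 15.4, 16.4 and 17.1 CPM at T9. All 4 T3 libraries lay below all 4 T9 libraries, but the change of -0.48 ± 0.23 had an adjusted p of 0.334. Col6a1 and Col6a2 changed by -0.63 and -0.81 at T3 against sham in the triceps, with adjusted p of 0.162 and 0.0664.

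Of the 9 basement membrane genes, limma called 0 in any of the 6 comparisons within a muscle. Of all genes, 33.7% were called at T3 and 43.2% at T9 against sham, and 1.63% at T3 against T9, in the gastrocnemius. In the triceps the shares were 23.3%, 0.00889% and 7.6% in the same order. Over those comparisons 1 gene, Col15a1 at T3 against T9 in the triceps, had an unadjusted p under 0.05, and limma with voom weights also called 0. Centred libraries gave 1 call, Col15a1, lower in the triceps at T3 against sham and at T3 against T9. The shares of all genes called in centred triceps libraries are not given here, so this count is not read against them. The median change over the 9 genes was 0.38 at T3 and 0.42 at T9 in the gastrocnemius, and 0.20 and 0.15 in the triceps, near the all-gene medians. Without gastrocnemius sham replicate 4, the gastrocnemius library of lowest median log2 CPM, the medians of the 9 genes there were 0.12 and 0.07. The all-gene medians without that library are not given here, so these values are not set against them. The spread within groups was wide. Col4a1, a chain of the collagen IV network, had 98.4, 90.8, 75.9 and 100 CPM in gastrocnemius T3 libraries, 82.2, 85.1, 94.7 and 111 CPM at T9, and 50.1, 147, 98.4 and 23.4 CPM in sham libraries. All lesion libraries lay between the lowest and the highest sham library. Its change was 0.50 ± 0.41 at T3 (95% interval -0.37 to 1.37) and 0.53 ± 0.41 at T9 (-0.34 to 1.40).

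Hspg2, which codes for the heparan sulphate proteoglycan perlecan, had 103, 98.8, 110 and 99.5 CPM at T3, 97.9, 105, 142 and 138 CPM at T9, and 46.6, 140, 114 and 34 CPM in sham libraries of the gastrocnemius. Its largest change against sham was 0.75 ± 0.35 at T9 in the gastrocnemius (adjusted p = 0.098). Lamc1, the gamma chain of the muscle laminins, changed by 0.73 ± 0.34 at T3 there (adjusted p = 0.112), with T3 libraries between 59.1 and 75.9 CPM and sham libraries between 20 and 72.5 CPM. Gastrocnemius sham replicates 1 and 4 were the low libraries for Col4a1, Hspg2 and Lamc1 alike. The summed RPKM of the 9 genes was 34.8 and 21.5 in those 2 libraries, against 90.7 and 78.1 in sham replicates 2 and 3. The 10 endothelial markers moved with it, at 196 and 120 CPM in sham replicates 1 and 4 and 354 and 351 CPM in replicates 2 and 3, while the lesion libraries held 315 to 386 CPM. Muscle fibre, mural, adipocyte, Schwann and satellite cell markers also summed lower in sham replicates 1 and 4 than in 2 and 3, and macrophage markers summed higher. The library medians of log2 CPM were 3.86 and 3.66 in replicates 1 and 4 and 4.02 and 4.06 in 2 and 3. The part of the endothelial markers, of the other cell types and of the library medians in the spread of basement membrane genes was not tested. Lama2, the alpha chain of the adult muscle laminin, Lamb2, a beta chain, and the nidogens Nid1 and Nid2, which bridge laminin and collagen IV, had adjusted p between 0.177 and 0.942 against sham in the gastrocnemius.

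Col4a1 and Col4a2 code for the chains that assemble together into the common collagen IV. The genes lie head to head on chromosome 8, and their promoter windows overlap, so the windows are printed to show the stretch both share. Both come from RefSeq on GRCm38.p6 and run from 250 bases before to 50 bases after the annotated start. The 78 bases in capitals are the overlap, which reads as the reverse complement in the other gene.
Col4a1, chr8:11312777-11313076, minus strand: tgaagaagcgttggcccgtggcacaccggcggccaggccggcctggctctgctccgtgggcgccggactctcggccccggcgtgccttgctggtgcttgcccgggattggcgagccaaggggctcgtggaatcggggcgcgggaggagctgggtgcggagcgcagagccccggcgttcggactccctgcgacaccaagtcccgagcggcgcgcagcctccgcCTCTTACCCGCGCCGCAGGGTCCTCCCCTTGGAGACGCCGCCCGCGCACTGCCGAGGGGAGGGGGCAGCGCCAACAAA
Col4a2, chr8:11312555-11312854, plus strand: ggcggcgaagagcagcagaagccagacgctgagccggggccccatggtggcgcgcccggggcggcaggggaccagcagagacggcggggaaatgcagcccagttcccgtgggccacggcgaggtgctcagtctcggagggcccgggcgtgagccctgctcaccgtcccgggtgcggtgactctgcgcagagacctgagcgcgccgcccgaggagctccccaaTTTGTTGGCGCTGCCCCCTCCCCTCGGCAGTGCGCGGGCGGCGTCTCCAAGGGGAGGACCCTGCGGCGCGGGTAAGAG
The windows are 74% and 73.7% GC, and neither holds TATAAA. Each holds CCAAT once, counting both strands, as do 37.41% of all 32851 mouse promoter windows of this length at least once. On the per-length scale the ratio of Col4a2 to Col4a1 was 0.845 ± 0.0646 in gastrocnemius T3 libraries, 0.866 ± 0.0428 at T9 and 0.813 ± 0.119 in sham libraries (SD, n = 4 each). The triceps ratios were lower and wider, at 0.698 ± 0.0974 at T3, 0.728 ± 0.108 at T9 and 0.588 ± 0.253 in sham libraries (n = 6 each). The lowest 2 triceps ratios were 0.240 and 0.341, in sham replicates 3 and 4, which also had the lowest median log2 CPM.

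**Figure D4:**
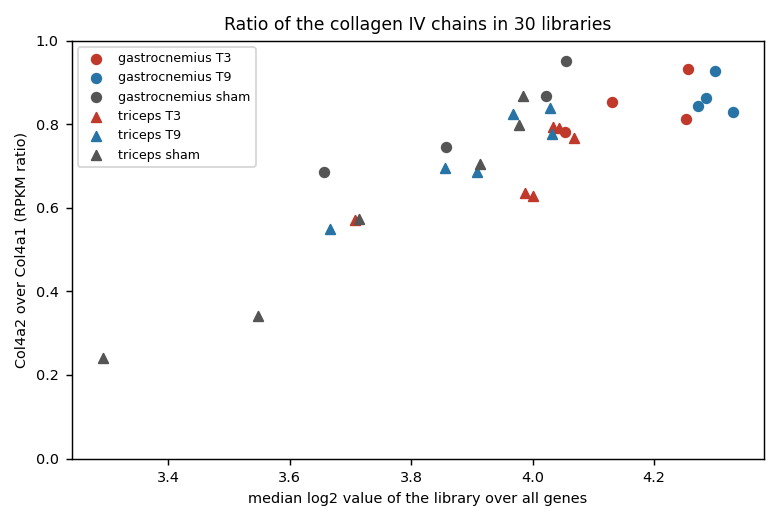
Ratio of Col4a2 to Col4a1 RPKM in each library (y axis) against the library's median log2 CPM over all genes (x axis), with colours for surgery and symbols for muscle. The 2 lowest ratios, 0.240 and 0.341, belong to triceps sham replicates 3 and 4 at the left edge, and the 12 gastrocnemius libraries lie between 0.685 and 0.951.

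Among the matrix glycoproteins, Postn fell most. Postn codes for periostin, a secreted protein that binds collagen and is high in growing or repairing connective tissue. It had 1.48, 1.15, 1.42 and 1.25 CPM in gastrocnemius T3 libraries, 2.18, 2.08, 2.08 and 2.96 CPM at T9, and 6.31, 5.49, 6.83 and 3.99 CPM in sham libraries. The 3 groups did not overlap, with T3 lowest and sham highest. At T3 it stood at 0.242 of the sham level (log2 -2.05 ± 0.22, adjusted p = 2.96e-05), and at T9 at 0.418 of it (log2 -1.26 ± 0.22, adjusted p = 0.000963). T3 against T9 gave -0.79 ± 0.22, with an adjusted p of 0.0907. In the triceps Postn had 1.25, 1.79 and 2.31 CPM (lowest, median, highest) at T3, 1.87, 3.12 and 12 CPM at T9, and 1.57, 3.55 and 176 CPM in sham libraries. The highest is sham replicate 4, and the next highest sham library had 5.52 CPM. The T3 change was -1.65 ± 0.83 with it (adjusted p = 0.153) and -0.65 without it (adjusted p = 0.289).

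Fbn1 codes for fibrillin-1, the core of microfibrils that hold latent TGF-beta. It had 9.25, 5.63, 6.45 and 7.41 CPM in gastrocnemius T3 libraries, 7.52, 7, 7.97 and 9.92 CPM at T9, and 10.8, 20.5, 14.9 and 10.6 CPM in sham libraries. Every lesion library lay below every sham library. The gene fell by 0.95 ± 0.23 at T3 (adjusted p = 0.00695) and by 0.76 ± 0.23 at T9 (adjusted p = 0.0176), and the T9 call of Fbn1 was lost without T9 replicate 2 (-0.70, adjusted p = 0.0529). Fbn1 shares 2442 exon bases with Gm9913 on the opposite strand, so reads of the pair may not be told apart, and Timp3 shares 1733 with Syn3 and Nid2 shares 437 with Rtraf in the same way. Without overlap with sham at T3 there were 3 genes below, Col3a1, Postn and Fbn1, and 1 above, Mmp2, where 5.81% and 23.9% of all genes lay so. At T9 there were 2 below, Postn and Fbn1, and 4 above, Scx, Loxl1, Mmp2 and Timp2, beside 4.82% and 34.8% of all genes. In the triceps the T3 libraries had 0 of the 36 genes without overlap with sham in either direction, beside 1% of all genes below and 5.62% above. The T9 libraries had 0 as well, beside 0.0444% of all genes below and 0.818% above. Fn1, the cell-binding glycoprotein fibronectin, changed by -0.55 ± 0.23 at T3 and 0.01 ± 0.23 at T9 in the gastrocnemius (adjusted p = 0.078 and 0.982). Sparc, a collagen-binding glycoprotein and the highest of the 36 genes per length at a mean of 41.7 RPKM, changed little in the gastrocnemius, at 0.07 (95% interval -0.22 to 0.35) for T3 and 0.13 (-0.16 to 0.41) for T9.

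Promoter windows of the 3 genes called lower at both lesions in the gastrocnemius are shown so that they can be compared. They come from RefSeq on GRCm38.p6, with 250 bases before and 50 after the annotated start, and capitals mark the letters TATAAA.
Col3a1, chr1:45311288-45311587, plus strand: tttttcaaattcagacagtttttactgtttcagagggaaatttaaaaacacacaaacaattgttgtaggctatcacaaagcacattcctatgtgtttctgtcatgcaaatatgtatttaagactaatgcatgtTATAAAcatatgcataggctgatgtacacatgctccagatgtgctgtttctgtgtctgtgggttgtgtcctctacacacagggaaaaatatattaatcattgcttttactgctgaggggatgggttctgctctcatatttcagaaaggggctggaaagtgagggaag
Postn, chr3:54360857-54361156, plus strand: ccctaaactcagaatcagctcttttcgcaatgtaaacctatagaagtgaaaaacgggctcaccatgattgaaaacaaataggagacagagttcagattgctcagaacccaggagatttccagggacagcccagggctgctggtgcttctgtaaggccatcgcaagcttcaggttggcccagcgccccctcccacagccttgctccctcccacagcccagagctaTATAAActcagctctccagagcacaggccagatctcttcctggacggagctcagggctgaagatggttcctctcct
Fbn1, chr2:125506389-125506688, minus strand: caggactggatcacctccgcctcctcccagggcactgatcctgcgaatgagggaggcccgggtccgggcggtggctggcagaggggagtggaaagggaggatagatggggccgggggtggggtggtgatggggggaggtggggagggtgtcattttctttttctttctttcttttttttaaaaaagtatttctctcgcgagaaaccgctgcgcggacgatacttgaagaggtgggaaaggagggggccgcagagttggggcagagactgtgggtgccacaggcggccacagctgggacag
TATAAA was searched on both strands and occurs in 13.62% of the 32851 windows. It begins at -117 in Col3a1 and at -26 in Postn, and the Fbn1 window does not hold it. The GC share was 37.7%, 53% and 60.3% in that order. CCAAT was in none of the 3. Of the 36 genes, 25 had a window in the RefSeq table used.

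The small leucine-rich proteoglycans coat collagen fibres and set their spacing. Bgn, which codes for biglycan, had 13.6, 10.5, 13.9 and 19.4 CPM in gastrocnemius T3 libraries, 17.7, 18.9, 19.6 and 21.3 CPM at T9, and 20.9, 21.1, 28.2 and 16.4 CPM in sham libraries. T3 replicate 4 overlapped the lowest sham library. The gene fell by 0.60 ± 0.20 at T3 against sham (adjusted p = 0.0327), a call that was lost without any of sham replicates 1 and 3 or T3 replicates 1, 2 and 3 (adjusted p for Bgn from 0.0659 to 0.0959) and with the replicate number as a block (adjusted p = 0.0503). Lum, which codes for lumican, had 2.24, 5.84 and 8.26 CPM (lowest, median, highest) in triceps T3 libraries, 6.62, 8.86 and 14.2 CPM at T9, and 5.92, 9.83 and 42.9 CPM in sham libraries. It fell by 1.11 ± 0.37 at T3 against sham in the triceps (adjusted p = 0.0354), but the call was lost without sham replicate 4 (-0.77, adjusted p = 0.0696), sham replicate 3, or T3 replicate 1, 2, 3 or 5 (adjusted p for Lum from 0.0512 to 0.0961). The Lum call was also lost with no term for the 57 or 60 (adjusted p = 0.0629) and within 57 or 60 alone (-0.82 and -1.26, adjusted p = 0.329 and 0.0633). In the gastrocnemius the Lum change at T3 was -0.62 ± 0.27 (adjusted p = 0.092). Dcn, which codes for decorin and was the second highest of the 36 genes per length at 32.1 RPKM, changed by 0.51 at T3 and 0.56 at T9 in the gastrocnemius and by -0.04 and 0.08 in the triceps, each past no threshold. Fmod, the tendon proteoglycan fibromodulin, ranged from 19.5 to 46.5 CPM at T9 and from 16.1 to 30.7 CPM in sham libraries of the gastrocnemius, a change of 0.50 ± 0.27 (adjusted p = 0.143).

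Of the 4 genes of collagen folding and crosslinking, 1 rose at each lesion in the gastrocnemius and 0 fell. Of all genes, 27.1% were called higher and 6.65% lower at T3, and 37.6% higher and 5.67% lower at T9, so this count does not stand above them. Lox codes for lysyl oxidase, which starts the crosslinks of collagen and elastin. It had 8.21, 5.36, 8.53 and 8.83 CPM in gastrocnemius T3 libraries, 7.52, 5.02, 5.79 and 7.15 CPM at T9, and 5.98, 3.04, 5.85 and 4.49 CPM in sham libraries. T3 replicate 2 lay inside the sham range. Lox rose by 0.70 ± 0.24 at T3 against sham (adjusted p = 0.0417), and the call was lost with centred libraries (0.42, adjusted p = 0.22) and without sham replicate 2 or 4 or T3 replicate 1, 3 or 4 (adjusted p for Lox from 0.0621 to 0.107). In the triceps Lox had 5.05, 6.58 and 14.2 CPM (lowest, median, highest) at T3 and 2.18, 3.34 and 37.7 CPM in sham libraries, where the highest is replicate 4. The Lox change there was 0.73 ± 0.53 with that library (adjusted p = 0.312) and 1.35 without it (adjusted p = 0.00447), so 1 library decided the call.

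Loxl1, the lysyl oxidase relative best known for elastic fibres, had 13, 13.2, 12.4 and 12.3 CPM in gastrocnemius T9 libraries and 5.61, 9.11, 10.5 and 4.64 CPM in sham libraries, without overlap. It rose by 0.85 ± 0.25 (adjusted p = 0.0149), a call lost with centred libraries (0.45, adjusted p = 0.118). At T3 its change was 0.62 ± 0.25 (adjusted p = 0.0628). Serpinh1, the collagen chaperone HSP47, and P4ha1, a catalytic subunit of the prolyl hydroxylase that stabilises the collagen helix, were past no threshold. Both were lower in every T3 library than in every T9 library of the gastrocnemius: Serpinh1 had 30.4, 36.3, 34.8 and 38 CPM at T3 and 55.2, 42.8, 40.5 and 58.1 CPM at T9, and P4ha1 had 25.8, 31, 31.2 and 28.9 CPM at T3 and 45.8, 40.1, 39.9 and 39.2 CPM at T9. The changes were -0.48 ± 0.22 for Serpinh1 (adjusted p = 0.318) and -0.50 ± 0.21 for P4ha1 (adjusted p = 0.262). In all, 9 of the 36 genes had every T3 library below every T9 library in the gastrocnemius and 0 had every one above, where 12.3% and 5.89% of all genes lay so. The 9 were Col3a1, Col5a1, Col6a3, Postn, Fn1, Lum, Serpinh1, P4ha1 and Scx.

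Mmp2, Timp2 and Timp3 act in matrix turnover. Mmp2 codes for gelatinase A, which cleaves basement membrane collagen and denatured fibre collagen. It had 18.5, 15.5, 21 and 23.5 CPM in gastrocnemius T3 libraries, 18.5, 16.6, 15 and 18.4 CPM at T9, and 7.92, 11.7, 14.9 and 7.69 CPM in sham libraries. Every lesion library lay above every sham library. Mmp2 rose by 0.94 ± 0.21 at T3 (adjusted p = 0.00513) and by 0.75 ± 0.21 at T9 (adjusted p = 0.0142). With centred libraries the T3 rise of Mmp2 was 0.66 and stayed past the threshold, and the T9 rise was 0.35 and did not (adjusted p = 0.138). In the triceps Mmp2 had 7.7, 11.6 and 17.7 CPM (lowest, median, highest) at T9 and 3.76, 7.85 and 13.2 CPM in sham libraries, a change of 0.71 ± 0.24 with an adjusted p of 0.338.

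Timp2, an inhibitor of metalloproteinases that also takes part in activating gelatinase A, was called higher at T9 in the gastrocnemius and lower at T3 in the triceps. In the gastrocnemius it had 62.9, 57.5, 56.4 and 68 CPM at T9 and 40, 48.3, 51 and 43.9 CPM in sham libraries, without overlap, and rose by 0.42 ± 0.14 (adjusted p = 0.0263). That call was lost with centred libraries, where the Timp2 change was 0.02 (adjusted p = 0.908), and without sham replicate 1 or T9 replicate 1 or 4 (adjusted p 0.083, 0.0573 and 0.0836). In the triceps it had 21.9, 24.7 and 34.7 CPM (lowest, median, highest) at T3, 29.6, 37.6 and 43.9 CPM at T9, and 28.9, 40.2 and 64.8 CPM in sham libraries. The T3 change was -0.69 ± 0.18 (adjusted p = 0.0107), and -0.55 without sham replicate 4 (adjusted p = 0.0221). Within the 57 and 60 descriptions the Timp2 change at T3 was -0.70 and -0.69, with adjusted p of 0.0809 and 0.0766. Timp3, the inhibitor that stays bound to the matrix, changed by 0.63 ± 0.30 at T3 and 0.61 ± 0.30 at T9 in the gastrocnemius (adjusted p = 0.117 and 0.11).

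The fibroblast and tendon markers gave the largest rise of the 36 genes. Scx codes for scleraxis, a transcription factor that marks tendon cells and their progenitors. It had 7.61, 11.8, 19.8 and 10 CPM in gastrocnemius T3 libraries, 43.8, 36.4, 43.3 and 54.4 CPM at T9, and 8.15, 3.81, 7.16 and 13.1 CPM in sham libraries. The lowest T9 library was above every T3 and every sham library, and the T3 libraries overlapped the sham libraries. At T9 the level was 5.97 times that of sham (log2 2.58 ± 0.34, adjusted p = 0.000157), and T3 against T9 gave -1.93 ± 0.34 (adjusted p = 0.0187). The T9 call held in all 8 fits that left out 1 library, while the call of Scx for T3 against T9 was lost without T3 replicate 1 or 2 or T9 replicate 1, 3 or 4 (values from -1.94 to -1.73, adjusted p from 0.0565 to 0.0784).

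Scx lies on chromosome 15 at chr15:76457452-76459458 (GRCm38, plus strand), inside an intron of Bop1, a ribosome biogenesis gene on the opposite strand, with no exon base shared. Bop1 rose as well, to 57.8 ± 6.43 CPM at T3 and 71.2 ± 7.18 CPM at T9 against 31.1 ± 8.43 CPM in sham libraries of the gastrocnemius, by 0.93 at T3 (adjusted p = 0.00261) and 1.24 at T9 (adjusted p = 0.000455). The kit keeps strand, but no source used here gives the strand setting of the counting, and what part unspliced Bop1 RNA has in the Scx counts was not tested. For Bop1, T3 against T9 gave -0.30 (adjusted p = 0.497). In the triceps Scx changed by 0.07 at T9 against sham (95% interval -0.55 to 0.69) and by -0.54 at T3 (-1.16 to 0.08). Bop1 changed there by 0.22 at T9 (adjusted p = 0.617) and by 0.56 at T3 (adjusted p = 0.047).

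Pi16 marks a fibroblast population found around vessels and in fascia. In the triceps it had 2.95, 3.68 and 4.78 CPM (lowest, median, highest) at T3, 5.9, 8.88 and 12.9 CPM at T9, and 4.05, 4.67 and 7.45 CPM in sham libraries. Every T3 library lay below every T9 library, the 1 gene of the 36 of which this was so, where 1.67% of all genes did, and 0 of the 36 had every T3 library above, beside 3.3%. Pi16 was lower at T3 than at T9 by a log2 difference of -1.21 ± 0.21 (adjusted p = 0.00192), with -1.09 within the 60 descriptions (adjusted p = 0.141) and -1.44 within 57 (adjusted p = 0.035). Neither lesion alone was past the threshold against sham, at -0.41 ± 0.21 for T3 (adjusted p = 0.156) and 0.79 ± 0.21 for T9 (adjusted p = 0.182). In the gastrocnemius Pi16 had 5.91, 5.02, 5.58 and 3.02 CPM at T3, 7.34, 6.68, 4.67 and 7.95 CPM at T9, and 8.67, 4.46, 10.2 and 14.2 CPM in sham libraries, a T3 change of -0.87 ± 0.32 with an adjusted p of 0.0512. Pdgfra, the receptor that marks muscle fibroblasts and fibro-adipogenic progenitors, lay between 8.43 and 12.3 CPM at T3, 9.54 and 13 CPM at T9, and 5.94 and 10.5 CPM in sham libraries of the gastrocnemius. Its T9 change was 0.51 ± 0.20 (adjusted p = 0.0517).

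Across roles, the median change of the matrix glycoproteins was the lowest in the gastrocnemius at T3, at -0.75, and -0.38 at T9. Collagen VI had -0.30 and -0.07, and the small leucine-rich proteoglycans had -0.28 and 0.31. Folding and crosslinking genes had 0.17 and 0.31, turnover genes 0.63 and 0.61, and the fibroblast and tendon markers 0.38 and 0.51. These stand beside 0.27 and 0.40 for all genes, and the medians of the proteoglycans and of the folding and crosslinking genes at T9 lie below the all-gene value. In the triceps at T3, where all genes had 0.23, collagen VI had -0.81, the glycoproteins -0.81, the fibroblast and tendon markers -0.41, the proteoglycans -0.19, folding and crosslinking 0.02 and turnover 0.40. Without sham replicate 4 all genes had 0.20, and these roles had -0.68, -0.35, -0.29, -0.11, 0.15 and 0.40 in the same order. T3 against T9 in the triceps gave -0.76 for the fibrillar collagens and -0.03 for the basement membrane genes, with an all-gene median of 0.05. The medians carry no test.

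Some markers of other cell types differed between the groups as well. Cd68, a macrophage lysosomal protein, averaged 10.0 ± 7.05 CPM at T3, 9.91 ± 1.77 CPM at T9 and 1.21 ± 0.80 CPM in sham libraries of the gastrocnemius, and 21.5 ± 16.9, 2.28 ± 1.13 and 3.04 ± 5.22 CPM in the same order in the triceps. Cd68 was the 1 of 9 macrophage markers called at T3 in each muscle. Lyz2 and Ctss, also among the 9, had lower means at the lesions than in sham libraries of the gastrocnemius. Lyz2 averaged 15.4 CPM at T3, 17.3 CPM at T9 and 21.7 ± 10.9 CPM in sham libraries. Ctss averaged 2.12, 1.83 and 3.00 ± 1.28 CPM in the same order. The rest of the 9 are not given singly here. The 9 summed to 44.9 to 56.0 CPM at T3, 43.5 to 64.7 CPM at T9 and 19.6 to 65.9 CPM in sham libraries of the gastrocnemius. The adipocyte markers summed to 2669 to 3831 CPM at T9 against 1653 to 2505 CPM in sham libraries of the gastrocnemius, and to 441 to 1143 CPM at T3 against 1333 to 1957 CPM in sham libraries of the triceps. The 4 satellite cell markers summed to 66.5 to 71.8 CPM at T3, 70.7 to 103 CPM at T9 and 26.3 to 40.2 CPM in sham libraries of the gastrocnemius, most of it Cdh15, a cadherin of satellite cells. Of the 4, Cdh15 rose at T3 and Cdh15 and Myf5 rose at T9 there, and Cdh15 rose at T3 in the triceps. The part of these cell types in the changes of the matrix genes was not tested.

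In the 12 mice that the descriptions name for both muscles, the gastrocnemius was set against the triceps of the same mouse. At T3 9 of the 36 genes were higher in the gastrocnemius and 0 lower (30.4% of all genes called, 20.5% higher and 9.95% lower). At T9 10 were higher and 0 lower (53% called, 41.9% higher and 11.1% lower). In sham mice 10 were higher and 2 lower (38.9% called, 26.8% higher and 12% lower). With centred libraries the T9 split was 6 higher and 1 lower, beside 21.6% and 24.2% of all genes. Lama2, Nid2, Hspg2, Fmod and Mmp2 were higher in the gastrocnemius in all 3 surgeries, but with centred libraries Nid2 lost its call at T3 and T9 (adjusted p = 0.0555 and 0.105) and Mmp2 at T9 (adjusted p = 0.125). Centring also ended the calls of Scx at T3, Nid1 and Loxl1 at T9 and Pi16 in sham mice. Hspg2 was higher in 4 of 4 mice of each surgery, by 1.34 ± 0.37 at T3 (adjusted p = 0.0206), 1.41 ± 0.37 at T9 (adjusted p = 0.00758) and 1.09 ± 0.37 in sham mice (adjusted p = 0.036). Col5a3 was higher by 1.65 ± 0.43 at T3 and 1.74 ± 0.43 at T9 (adjusted p = 0.0172 and 0.0059), and Timp2 by 0.96 ± 0.20 and 0.85 ± 0.20 (adjusted p = 0.00608 and 0.00391). The 12 calls in sham mice became 0 without the mouse of sham triceps replicate 3, whose triceps library had the lowest median of all. The deviations of its gastrocnemius and triceps libraries from their group means correlated at -0.753. The calls were 7 without the mouse of sham triceps replicate 2 and 25 without that of replicate 4. The 9 calls at T3 became 1 without the mouse of T3 triceps replicate 3 or 4 and 3 without that of replicate 2, and without the sham mouse of triceps replicate 3 they were 19. The 10 calls at T9 were 6 without the mouse of T9 triceps replicate 1 or 4 and 17 without the same sham mouse. The shares of all genes called without these mice are not given beside the counts.

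The difference between the muscles in the response to a lesion was tested directly in these mice. For T3 against sham limma called 0 of the 36 genes (1.24% of all genes called), with 4 at an unadjusted p under 0.05 and 0 called with voom weights. The smallest p was that of Scx, at 1.38 ± 0.33 (adjusted p = 0.0631). For T9 against sham 3 were called beside 6.95% of all genes (3.76% higher, 3.19% lower): Scx at 2.70 ± 0.33 (adjusted p = 0.000634), Dcn at 0.83 ± 0.20 (adjusted p = 0.0245) and Pi16 at -1.12 ± 0.29 (adjusted p = 0.0373), each gastrocnemius minus triceps. With centred libraries the split was 1 higher and 1 lower, beside 3.24% and 4.98% of all genes, and the count was 1 without the mouse of T9 triceps replicate 2 or 3 or sham triceps replicate 4 and 5 without that of sham triceps replicate 3. Scx was called in all 9 fits that left out 1 mouse. Dcn was lost without the mouse of T9 triceps replicate 2, 3 or 4 or sham triceps replicate 2 or 4 (adjusted p from 0.0533 to 0.0802), and with centred libraries (0.69, adjusted p = 0.188). Pi16 was lost without the mouse of sham triceps replicate 1 or 4 or T9 triceps replicate 1, 2 or 3 (adjusted p from 0.078 to 0.121). Within mice, Scx was higher in the gastrocnemius in 3 of 4 at T3, 4 of 4 at T9 and 0 of 4 in sham mice, Dcn in 2, 4 and 0, and Pi16 in 4, 1 and 4.

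**Figure D5:**
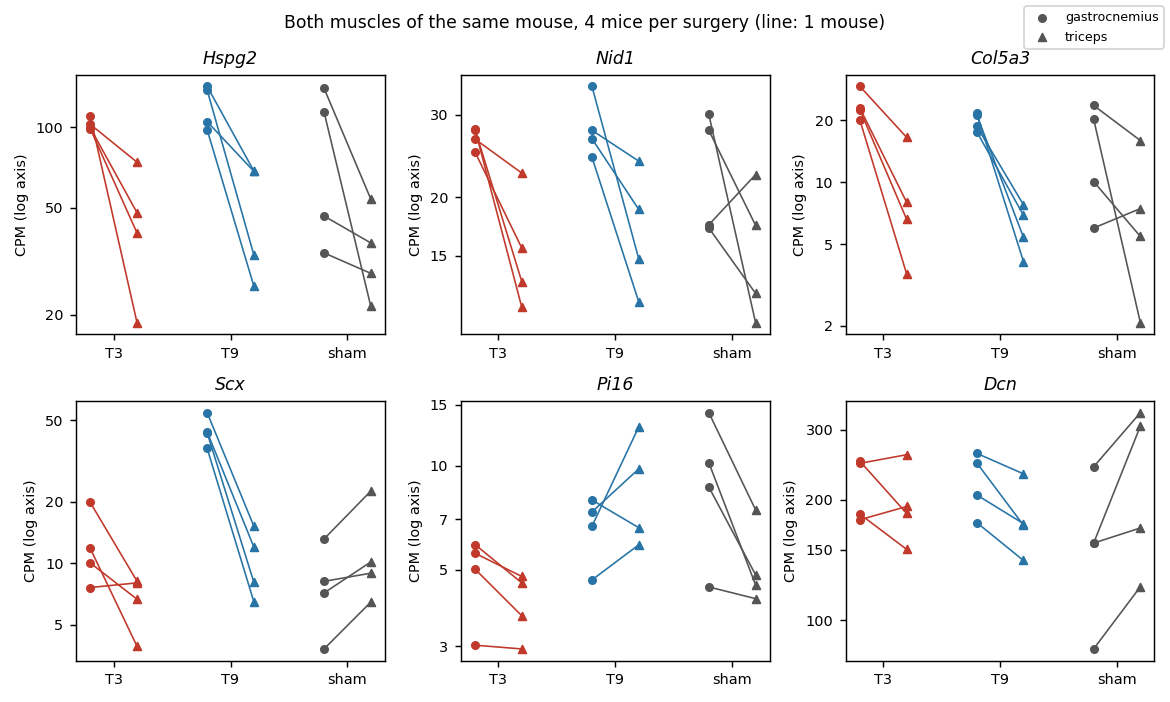
CPM on a log axis in the gastrocnemius (circles) and the triceps (triangles) for 6 genes, by surgery; each line joins both muscles of 1 mouse. For Scx all 4 lines slope down to the triceps at T9 and up to it in sham mice, and for Hspg2 all 12 slope down to the triceps.

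Other genes of the pathway were taken from lists, and their counts are read against the shares of all genes called, which were 27.1% higher and 6.65% lower at T3 and 37.6% higher and 5.67% lower at T9 in the gastrocnemius, and 19% higher and 4.32% lower at T3 in the triceps. With centred libraries the gastrocnemius shares were 14.6% and 14.5% at T3 and 11.1% and 12.4% at T9. Of 6 other collagens in the table, Col8a1, a short-chain collagen of vessel walls, was the 1 called in the gastrocnemius at T3 (-0.95), and 0 were called at T9 or in the triceps at T3. Of 18 other collagen synthesis enzymes, 5 rose and 2 fell at T3 in the gastrocnemius, among them P4hb, the partner subunit of P4ha1, at 0.88, and Adamts2, which trims the procollagen end, at 1.31. At T9 5 rose and 1 fell, P4hb at 0.95, and in the triceps at T3 2 rose and 1 fell, P4hb at 0.65 and Loxl2 at -1.27. With centred libraries the gastrocnemius T9 count was 1 higher and 2 lower. Of 11 other matrix proteases and inhibitors 3 rose and 1 fell at T3 in the gastrocnemius. Ctsl, the lysosomal protease cathepsin L, was higher at T3 and T9 in the gastrocnemius (2.43 and 2.28) and at T3 in the triceps (1.35), while Adamts5, which cleaves large proteoglycans, was lower (-1.27, -1.19 and -1.14).

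Of 17 genes of the TGF-beta pathway, which drives collagen transcription in fibroblasts, 9 rose and 1 fell at T3 (27.1% and 6.65% of all genes) and 10 rose and 1 fell at T9 (37.6% and 5.67% of all genes) in the gastrocnemius, with list medians of 0.75 and 0.98 against 0.27 and 0.40 for all genes. With centred libraries 7 rose and 1 fell at T3, beside 14.6% and 14.5% of all genes, and 8 rose and 1 fell at T9, beside 11.1% and 12.4%. Tgif1, a repressor of Smad targets, changed by 2.39 and 2.70, and Tgfbr1, the type I receptor, by 1.29 and 1.37. The ligand gene Tgfb2 rose by 1.67 at T9 and was lower at T3 than at T9 (-1.25). In the triceps at T3 6 rose and 0 fell (19% and 4.32% of all genes), among them the inhibitory Smads Smad6 (1.31) and Smad7 (1.02) and the receptor Tgfbr2 (1.21). Of 14 other fibroblast markers 3 rose and 3 fell at T3 in the gastrocnemius and 1 rose and 2 fell at T3 in the triceps. Fstl1, a secreted glycoprotein of fibroblasts, was lower at T3 and T9 in the gastrocnemius (-1.19 and -0.72) and at T3 in the triceps (-1.15). Of the 4 other tendon and myotendinous genes in the table, Ankrd1, a stretch-responsive gene of muscle fibres at the myotendinous junction, rose by 3.48 at T3 and 5.19 at T9 in the gastrocnemius, and Thbs4, a tendon glycoprotein, fell by 0.99 and 0.95.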

How the data were processed

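Poly(A) RNA of 30 muscle libraries was sequenced from a stranded kit, per the labels' protocols. The authors deposited log2 CPM values for 11249 genes, with an offset of 0.5 reads. HISAT2 2.1.0, featureCounts (Subread 1.5.1), limma and GRCm38 are named in the submitters' processing notes; no source used here gives the annotation release, the gene filter or the strand setting. Whole reads were recovered for 100% of values, within 0.01 reads, and CPM was computed from them. Gene symbols were found for 11240 IDs. Exon lengths and coordinates came from GENCODE M21 on GRCm38.

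Each muscle was fitted with limma 3.58.1 (R 4.3.3) on the log2 values of its 3 groups, with a variance trend, two-sided tests and Benjamini-Hochberg adjustment over all genes tested, threshold 0.05. Tested genes reached log2 CPM 0 in 4 or more libraries. The triceps fit had a term for the 57 or 60 that opens each description, whose meaning the labels do not give; all gastrocnemius libraries carry 60. Muscles were compared in the 24 libraries of 12 mice with mouse as a block. The mouse was read from the second number of the description, which is an inference; where libraries of a group are not separate animals, p-values measure only the spread between libraries, which may be technical. The fits were tested on simulated data with the same dispersion for all genes, no shift of library medians and no outlying library. The real libraries differ in these respects, so the simulation does not show how the fits behave on them.

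Same-numbered libraries within a muscle had a correlation over 0.1 in 3 of 12 gastrocnemius pairs and 10 of 18 triceps pairs. Pairs with different numbers had one in 11 of 36 and 39 of 90. The mean correlation of triceps pairs was 0.168 with the same number and -0.029 with different numbers. Replicate numbers were not used as pairs in the main fits. Libraries of the same mouse had a correlation over 0.1 in 11 of 12 pairs, against 8 of 36 pairs of different mice. The exception was the mouse of gastrocnemius and triceps sham replicate 3, at -0.753. That triceps library correlated at 0.863 with gastrocnemius sham replicate 4, which had 0.728 with its own inferred pair. It correlated at 0.514 with gastrocnemius sham replicate 1, which had 0.507 with its own. Gastrocnemius T3 replicate 3 had 0.252 with triceps T3 replicate 3 and 0.133 with triceps T3 replicate 4, its inferred pair. The inferred pairing is therefore uncertain for the mouse of sham replicate 3 and is not settled by these correlations for the others named. The 36 genes and the other lists were chosen with earlier results of these data known. The 36 genes are all named; of each other list, at most 3 genes per comparison with the smallest adjusted p among those called were eligible. Alternatives were library centring, quantile normalization, other filters and pseudocounts, voom weights on the recovered reads, blocks, and leaving out libraries. The fit without triceps sham replicate 4 and with centring was added after seeing the data.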

Additional observations from a re-analysis of the deposited data

Results flagged for a closer look

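Within groups of 4 to 6 libraries, the highest or lowest log2 CPM of each of the 36 genes was examined. Its gap to the nearest neighbour was set against the log2 range of the group, over 216 combinations of gene and group. In 11 of them 1 library lay far from the others, which is near the rate of about 1 in 20 that chance alone gives. Triceps sham replicate 4 accounts for 4 of them, with Postn at 176 CPM, Sparc at 371 CPM, Col6a3 at 50.2 CPM and Lox at 37.7 CPM. In the same library the 9 macrophage markers summed to 1075 CPM. Other high libraries were triceps sham replicate 5 for Fmod at 45.1 CPM, gastrocnemius T9 replicate 4 for Postn at 2.96 CPM, and gastrocnemius T9 replicate 1 for P4ha1 at 45.8 CPM. Low libraries were gastrocnemius T3 replicate 2 for Lox at 5.36 CPM and for Timp3 at 36.5 CPM, triceps T3 replicate 5, the deepest library, for Lum at 2.24 CPM, and triceps T9 replicate 1 for P4ha1 at 25.4 CPM.

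The change at T9 against sham differed between the muscles, gastrocnemius minus triceps, by 2.70 for Scx (adjusted p = 0.000634), 0.83 for Dcn (adjusted p = 0.0245) and -1.12 for Pi16 (adjusted p = 0.0373) on the log2 scale in limma's test of the difference in 12 mice.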

How the results depend on the processing

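Values here are numbers of the 36 genes called. The share of all genes called under each setting is not given beside them. They show how the calls depend on the processing and are not read as results about the 36 genes. With centred libraries and with quantile normalization T3 against sham gave 14 and 14 in the gastrocnemius; the triceps gave 11 and 12 for T3 against sham and 3 and 4 for T3 against T9. The difference between muscles at T3 gave 1 and 1. Without the 4 libraries of lowest median they were 14 for T3 against sham and 3 for T3 against T9 in the gastrocnemius, 7 for T3 against T9 in the triceps, 23, 16 and 0 for the muscles in T3, T9 and sham mice, and 1 for the muscle difference at T9. When a fit held just the pair of groups compared, they were 8 for T3 against T9 in the gastrocnemius, and 3 for T3 against sham and 8 for T3 against T9 in the triceps. In the triceps, T3 against sham gave 3 with no term for the description number and 0 within 60. T3 against T9 gave 0 within 60 and 4 within 57. Without triceps sham replicate 4 and with centring, a setting chosen after seeing the data, T3 gave 10 against sham and 9 against T9. With the mouse left out of the fit, sham mice gave 0 and the muscle difference at T9 gave 1. Without the sham mouse of triceps replicate 3 the muscles gave 19, 17 and 0 in T3, T9 and sham mice, and 5 for the difference at T9.

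With the replicate number as a block, which the main fits did not use, the gastrocnemius counts were 6, 7 and 1. Those are for T3 and T9 against sham and T3 against T9, and the triceps counts were 4, 0 and 1. Between muscles they were 9, 9 and 12 in T3, T9 and sham mice, and 0 and 2 for the muscle difference at T3 and T9. Leaving out 1 library or mouse gave 4 to 14, 6 to 13 and 0 to 1 in the gastrocnemius, 2 to 8, 0 to 0 and 1 to 1 in the triceps, 1 to 19, 6 to 17 and 0 to 25 between muscles, and 0 to 1 and 1 to 5 for the differences. The cause of these shifts was not tested. Of the called genes, 773 results under an alternative stayed past the threshold, 201 did not and 0 changed direction. With 4 to 6 libraries a group, a wide spread between libraries of a group and genes down to 11 reads, small changes could go undetected.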

Other observations

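The ratio of Col1a1 to Col1a2 on the per-length scale, whose proteins join in collagen I, was 0.884 ± 0.129 in gastrocnemius T3 libraries, 1.08 ± 0.224 at T9 and 1.26 ± 0.178 in sham libraries (SD, n = 4 each). All 4 T3 ratios lay below all 4 sham ratios, with the highest T3 ratio at 1.03 and the lowest sham ratio at 1.04. In the triceps the ratio was 0.951 ± 0.195 at T3, 1.15 ± 0.114 at T9 and 1.11 ± 0.389 in sham libraries (n = 6 each), and the groups overlapped. The ratio was chosen after seeing the values and carries no test.

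Of 20 laminins, integrins and matrix receptors outside the 36 genes, 6 rose and 0 fell at T3 and 11 rose and 1 fell at T9 in the gastrocnemius, and 3 rose and 1 fell at T3 in the triceps. Of all genes, 27.1% were called higher and 6.65% lower at T3 and 37.6% higher and 5.67% lower at T9 in the gastrocnemius, and 19% higher and 4.32% lower at T3 in the triceps. Sdc4, a heparan sulphate receptor, changed by 1.61, 1.21 and 1.13 in that order, and Itgb5, an integrin beta chain, by 1.94 and 1.38 in the gastrocnemius. Of 28 other matrix glycoproteins and proteoglycans, 4 rose and 2 fell at T3 and 11 rose and 2 fell at T9 in the gastrocnemius, where Ltbp3, which binds latent TGF-beta, changed by 1.22 and 1.24. With centred libraries these T9 counts were 3 rose and 1 fell for the receptors and 2 rose and 3 fell for the glycoproteins, beside 11.1% of all genes higher and 12.4% lower.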
